A study of Mus musculus with 8 samples.

Results

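Glycolysis and the hypoxia-inducible factor (HIF) response were followed through 46 genes: glucose transporters, glycolytic and lactate enzymes, the HIF subunits, the proteins that control HIF, and HIF target genes. A member was a row of the deposited value table whose probe set number is the Entrez gene number of a listed gene, and 45 of the 46 were found among 24973 probe sets. Gapdh was matched to no row and was not analysed here. Ero1l is listed under its newer symbol Ero1a, and Gpi1 and Eno1 were named through the RefSeq gene number only.

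Glycolysis splits glucose to pyruvate in the cytosol, and lactate dehydrogenase can turn pyruvate into lactate, which leaves the cell through monocarboxylate transporters. HIF is a dimer of an oxygen-labile alpha subunit and the stable partner ARNT. In the presence of oxygen and iron, prolyl hydroxylases of the EGLN family mark the alpha subunit for VHL, which leads to its destruction. When oxygen or iron is short, HIF persists and switches on glycolytic genes, Vegfa and its own hydroxylase genes, and activated macrophages use the same programme.

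The cells were primary macrophages grown for 7 days from bone marrow of wild-type mice 8 to 10 weeks old, in medium of L cells as a source of the growth factor M-CSF, and reseeded the day before treatment. The labels give neither strain nor sex. Hepcidin, the peptide hormone that closes the iron exporter ferroportin, was added at 10 µg/ml for 1 h in 4 samples, and 4 samples numbered in the same way, 1 to 4, are labelled PBS. The protocol text is the same for both groups and names hepcidin only, so handling of the PBS wells is not described further. The labels do not say whether a number stands for an animal, a culture or a processing day, so these cannot be told apart, and p-values cover no more than the scatter of these 8 arrays, part or all of which could be technical. All values are log2 expression values per probe set, on which 1 unit is a 2-fold difference.

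The arrays had medians of 4.87 to 4.95 and correlated at 0.989 to 0.996 across genes. Of 10 macrophage markers, Lyz2 was matched to no row, and the other 9 read 7.86 or more on every array, with the surface receptor Csf1r at 11.38 to 11.97. Both arrays numbered 1 stood apart in cell type markers. The mean over 10 neutrophil and precursor markers was 4.54 with PBS and 4.37 with hepcidin on number 1, 5.86 to 5.98 on numbers 2 and 3, and 5.44 and 5.41 on number 4. The mean over the 9 macrophage markers was 10.69 and 10.82 on number 1 and 11.13 to 11.24 on the other 6 arrays. None of these markers is at 0, since the log2 scale gives every probe set a value.

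Resting levels, the values of the 4 PBS arrays, describe which of these genes gave a signal. Background was set at the 90th percentile of 20 markers of lymphocytes (B, T and NK) and endothelial cells, 7.73, under which 20 of the 45 members fell. That bound rests on Blnk, Cd28 and Kdr, which were bright on every array. Without them, a choice made after seeing the data, the bound was 5.45 and 4 members fell under it: Pfkm (PBS mean 4.74), the muscle form of phosphofructokinase, Ldhb (4.75), the heart form of lactate dehydrogenase, the peptide hormone gene Adm (3.91) and the stress gene Ddit4 (4.73). Levels are not ranked between genes here, because a value also depends on the probes. Pgk1, Pgam1 and Eno1, which encode abundant enzymes of lower glycolysis and have near-identical copies in the genome, had PBS means of 5.75, 5.71 and 6.01. Whether such copies affected the values of these or other members was not tested, so their values are uncertain.

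The comparison of hepcidin with PBS asks whether the peptide moved the mRNA of this programme within 1 h. No member passed the test. In limma, fitted over 24570 genes with Benjamini-Hochberg adjustment, 0 of 45 members had an adjusted p under 0.05, as had 0% of all genes. With the replicate number as a block, 0 members and 1 of all genes passed (0.00407% of genes), and 2 members had an unadjusted p under 0.05 (4.9% of genes). At an unadjusted p under 0.05 there were 2 members, both higher with hepcidin, against 2.83% of all genes in either direction, 1.32% higher and 1.51% lower. Both had a mean of at least 6, as did 40 members in all, and among all genes that bright the share was 1.11%. Pgam1, 1 of the 2, passed that floor only through its hepcidin arrays (mean 6.35, against 5.71 with PBS). The 2 are therefore not set against that share. Groups that did not overlap were found for 0 members, against 1.86% of all genes (0.838% higher and 1.03% lower). Of the members, 29 were higher and 16 lower, against 12408 and 12162 of all genes. Above the background bound of 7.73, 17 members were higher and 8 lower, against 3058 and 2460 genes. The median log2 change was 0.04 for the members, and the median over all genes was 0.00. By pair of arrays with the same number, the members' median change was 0.17, 0.03, 0.00 and -0.04 in pairs 1 to 4. For 42 of the 45 members the change was smaller than 0.2 in size.

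Among the glucose transporters, Slc2a6, which encodes a lysosomal hexose transporter of macrophages, stood apart. It read 7.83, 8.10, 7.87 and 7.84 on PBS arrays 1 to 4 and 8.23, 8.50, 8.26 and 8.09 on hepcidin arrays 1 to 4. It was thus higher with hepcidin in each of the 4 pairs, while hepcidin array 4 lay just under PBS array 2. The log2 change was 0.36 ± 0.11 (SE), a 1.28-fold difference with a 95% confidence interval of 1.09 to 1.51, an unadjusted p of 0.00646 in limma and an adjusted p of 1. For Slc2a6, the limma fit with the replicate number as a block gave an interval of 0.2 to 0.53 log2 units. The unadjusted p in that limma fit was 0.0011 and the adjusted p 0.691. Slc2a1, the main glucose transporter gene of most cells, read 10.68, 10.59, 10.48 and 11.21 with PBS and 11.02, 10.70, 10.52 and 11.22 with hepcidin. Both of its arrays numbered 4 were higher than all others, and its change of 0.12 ± 0.19 was smaller than that spread. Slc2a3, a high-affinity transporter gene, differed by 0.11 ± 0.14.

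The hexokinase genes, whose enzymes trap glucose in the cell as a phosphate ester, showed changes of 0.03 ± 0.08 for Hk1, 0.06 ± 0.16 for Hk2 and 0.12 ± 0.15 for Hk3. Hk2, the form induced by HIF, read 8.15, 8.34, 8.10 and 8.63 with PBS and 8.46, 8.33, 7.98 and 8.67 with hepcidin. Its difference was 0.32 in pair 1 and -0.11 to 0.03 in the other 3. In upper glycolysis the 7 genes had differences between -0.02 (Pfkp, platelet phosphofructokinase) and 0.13 (Pfkl, liver phosphofructokinase). Pfkfb3, which makes the allosteric activator of phosphofructokinase, read 7.24, 7.03, 6.80 and 7.42 with PBS and 7.48, 6.96, 6.70 and 7.28 with hepcidin, a change of -0.02 ± 0.18. The related Pfkfb4 differed by 0.17 ± 0.21.

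In lower glycolysis, Pgam1, which encodes phosphoglycerate mutase, had the largest change of any member. It read 5.44, 6.03, 5.49 and 5.90 on PBS arrays 1 to 4 and 6.59, 6.45, 5.95 and 6.41 on hepcidin arrays 1 to 4. Each pair was higher with hepcidin, by 1.15, 0.41, 0.47 and 0.51, but hepcidin array 3 lay under PBS array 2. The log2 change was 0.63 ± 0.17, a 1.55-fold difference (95% confidence interval 1.19 to 2.02), with an unadjusted p of 0.00385 in limma and an adjusted p of 1. For Pgam1, the limma fit with the replicate number as a block gave an interval of 0.34 to 0.93 log2 units. The unadjusted p in that limma fit was 0.00122 and the adjusted p 0.7. The enolase gene Eno1 read 6.15, 6.37, 5.93 and 5.59 with PBS and 6.23, 6.39, 6.17 and 6.35 with hepcidin. Its change of 0.27 ± 0.15 came mostly from pair 4, at 0.76, against 0.02 to 0.24 in the other pairs. The phosphoglycerate kinase gene Pgk1 went the other way, from 5.68, 5.96, 5.62 and 5.74 with PBS to 5.22, 5.92, 5.73 and 5.44 with hepcidin (-0.17 ± 0.15). Neither of these changes passed. Pgam1, Eno1 and Pgk1 are the genes with near-identical copies named above, and a part of such copies in these values was not tested. The bright probe set of the pyruvate kinase gene Pkm read 10.88, 11.26, 11.31 and 11.43 with PBS and 11.23, 11.31, 11.21 and 11.25 with hepcidin, a change of 0.03 ± 0.11.

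**Figure D1:**
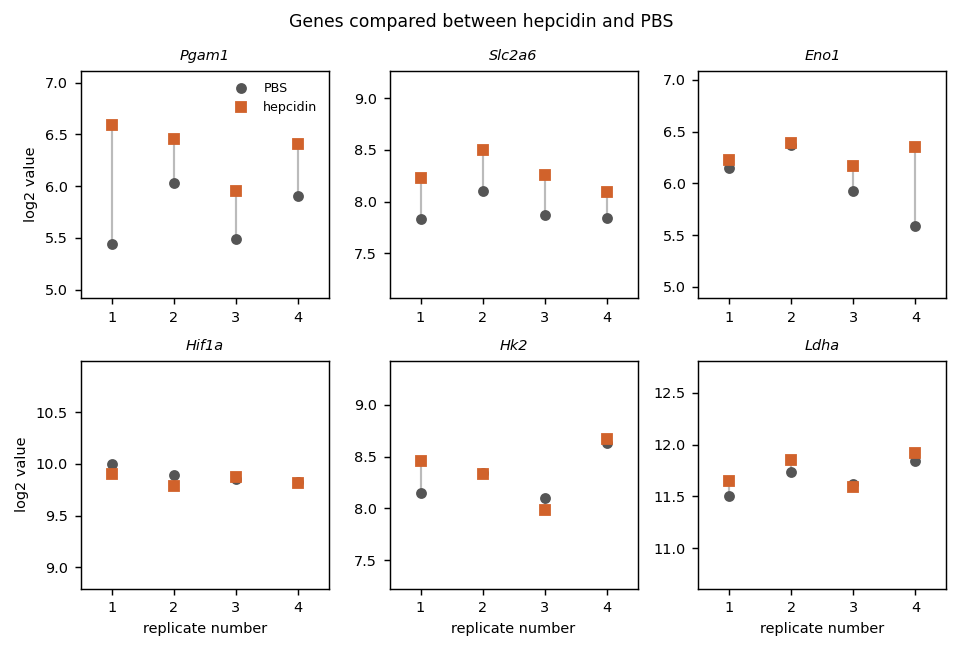
Log2 value of 6 genes on each array, by replicate number (x axis); circles are PBS, squares hepcidin, and a grey line joins arrays with the same number. All panels span the same height of 2.2 log2 units. Pgam1 and Slc2a6 were higher with hepcidin in 4 of 4 pairs without passing the test over all genes, and Hif1a stayed between 9.79 and 10.00 on all 8 arrays.

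None of the 4 lactate genes passed. Ldha, whose enzyme form favours lactate production, read 11.50, 11.74, 11.62 and 11.84 with PBS and 11.65, 11.85, 11.59 and 11.92 with hepcidin. The groups overlapped, and the change was 0.08 ± 0.11, with a 95% confidence interval of 0.896-fold to 1.24-fold. Ldhb read 4.72, 4.96, 4.61 and 4.73 with PBS and 4.85, 4.80, 4.87 and 4.89 with hepcidin (0.10 ± 0.09). The lactate exporter gene Slc16a3 differed by 0.13 ± 0.33 and the transporter gene Slc16a1 by 0.01 ± 0.15. Pdk1 and Pdk3, kinases that shut pyruvate out of the mitochondrial oxidation route, differed by -0.03 ± 0.16 and 0.07 ± 0.19.

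The HIF subunit genes were all slightly lower with hepcidin, and none passed. Hif1a, the oxygen-labile subunit expressed in most cells, read 10.00, 9.89, 9.85 and 9.82 with PBS and 9.90, 9.79, 9.87 and 9.81 with hepcidin. Its change of -0.05 ± 0.08 had a 95% confidence interval of 0.861-fold to 1.09-fold. This is the level of the mRNA, whereas HIF is controlled mainly through the stability of the protein, which was not measured. Arnt read 9.45, 9.27, 9.28 and 9.28 with PBS and 9.32, 9.19, 9.20 and 9.16 with hepcidin, lower in 4 of 4 pairs by 0.08 to 0.13, with a change of -0.10 ± 0.08. Epas1, the gene of the second oxygen-labile subunit, was lower in 4 of 4 pairs as well, by 0.01 to 0.14. Of all genes, 5.95% were lower in 4 of 4 pairs and 5.69% higher, against 2 and 6 members.

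The hydroxylase genes Egln1, Egln2 and Egln3 differed by 0.12 ± 0.15, 0.04 ± 0.13 and 0.02 ± 0.39, and Vhl by 0.09 ± 0.10. In the group of 12 other HIF targets, Mif included, 4 were higher and 8 lower, with changes from -0.09 for Ddit4 to 0.14 for Mxi1. Mxi1, a repressor of the Myc network, read 7.29, 7.12, 7.26 and 7.28 with PBS and 7.55, 7.22, 7.33 and 7.42 with hepcidin. It was higher in 4 of 4 pairs by 0.06 to 0.26, with overlapping groups (0.14 ± 0.09). Ddit4, an inhibitor of the kinase mTOR, read 4.66, 4.91, 4.71 and 4.62 with PBS and 4.73, 4.46, 4.71 and 4.67 with hepcidin. Bnip3, a receptor for the removal of mitochondria, read 7.14, 6.81, 6.53 and 7.54 with PBS and 6.78, 6.86, 6.92 and 7.25 with hepcidin. Its pair differences ran from -0.36 to 0.39, so the arrays disagreed in direction. Vegfa, the gene of an endothelial growth factor, differed by -0.01 ± 0.22.

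**Figure D2:**
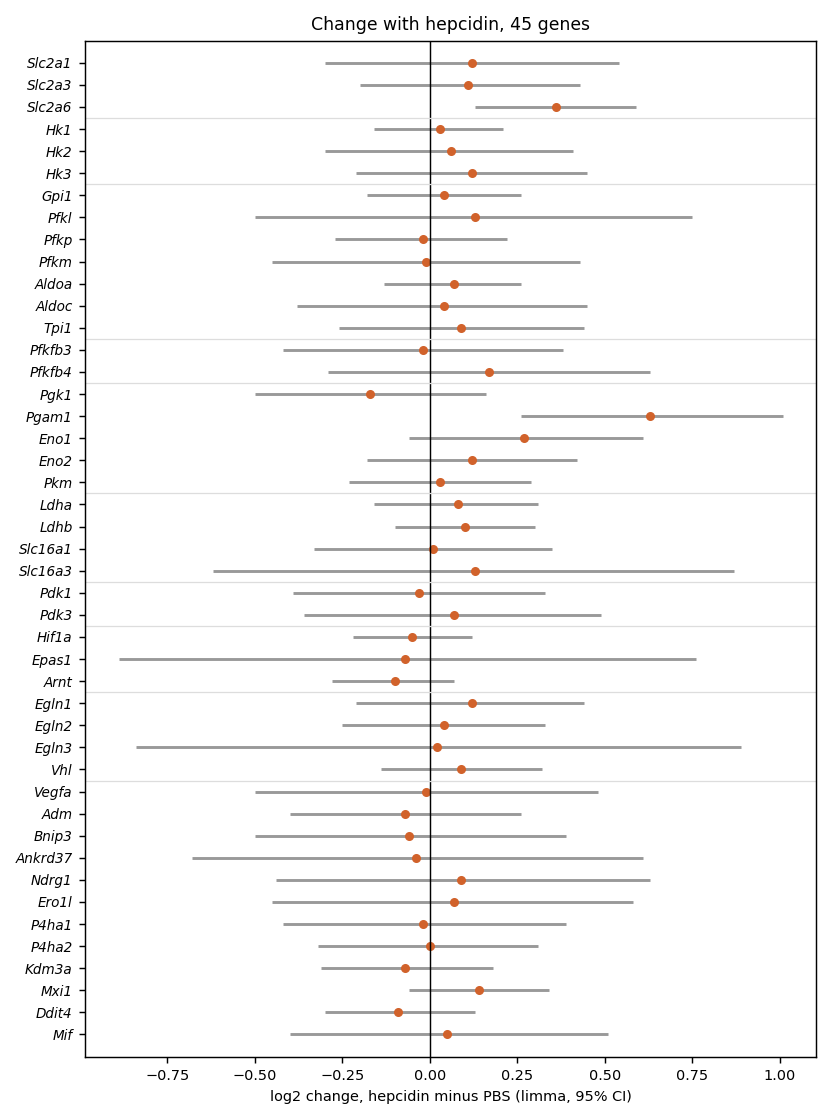
Log2 change of each of the 45 genes (points, hepcidin minus PBS, n = 4 arrays in each group) with its 95% confidence interval from limma without the replicate block (lines), grouped by role from top to bottom. The interval leaves out 0 for Pgam1 and Slc2a6 only, before any adjustment over genes, and the widest intervals are those of Egln3 and Epas1.

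The precision differed widely among the members. In 29 of 45 the confidence interval lay within 0.5 log2 units on either side of 0, and with the replicate number as a block this held for 42. The interval of Egln3 ran from -0.84 to 0.89 without the block and from -0.2 to 0.24 with it. That of Epas1 ran from -0.89 to 0.76 without the block and from -0.23 to 0.09 with it. Without the block, changes within those bounds could not be told from 0 for these genes, before any adjustment over genes. Unless the block is named, standard errors and intervals elsewhere in the text are from the fit without it, so they include the spread between the numbers.

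The arrays were also compared by replicate number. A limma F test, fitted over all genes with treatment in the model, asked whether both arrays of a number deviated together from the other numbers. It called 15 of 45 members at an adjusted p under 0.05, or 33.3%, against 5.67% of all genes. Counted in this same fit only among genes with a mean value of at least 6, 14 of 40 members passed (35%), against 11.9% of such genes. A fit redone on those genes alone called 24 of 40 members (60%), against 31% of the genes. The called members spanned all roles except hexokinases, the Pfkfb pair and lower glycolysis. They were Slc2a1, Pfkl, Pfkm, Aldoc, Slc16a3, Pdk1, Pdk3, Epas1, Egln3, Vegfa, Ankrd37, Ndrg1, Ero1l, P4ha1 and Mif, with adjusted p-values from 0.00123 to 0.0441 and ranges over the numbers of 1.44-fold to 2.99-fold. Of these, Pfkm read only 4.21 to 5.03 over all arrays, under the smaller background bound of 5.45.

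By the position of both arrays of a number, the largest count of members was that of number 4. Both arrays numbered 4 lay above the other 6 in 15 of 45 members (33.3%, against 5.98% of all genes), and 9 of these were among the called. They were Slc2a1, Hk2, Gpi1, Pfkl, Aldoc, Tpi1, Slc16a3, Pdk1, Egln1, Egln2, Egln3, Vegfa, Bnip3, Ankrd37 and P4ha1, thus transporters, enzymes, hydroxylases and other targets alike. Both arrays numbered 3 lay under the other 6 in 8 members (17.8%, against 5.37% of all genes), and so did both numbered 1 in 8 (17.8%, against 10.2%). Those under the others on number 3 were Slc2a1, Hk2, Hk3, Pfkfb3, Slc16a3, Egln3, Vegfa and Ero1l. Both arrays numbered 4 were under the others in 2 members, Pfkp and Ndrg1 (6.04% of all genes), and both numbered 3 above them in 1, Pfkfb4 (5.77%). Both arrays numbered 2 were above the others in 4 members (8.89%, against 4.88%), Eno1, Pdk3, Pgk1 and Slc2a3, and under them in 3 (6.67%, against 5.49%), Epas1, Mxi1 and P4ha2. These shares of all genes include dim genes. By pair means, number 4 was highest in 22 of 45 members, against 24% of all genes and 24.4% of genes with a mean of at least 6. Number 3 was lowest in 16 members (22.2% and 20.3% of genes) and number 1 in 14 (28.6% and 38.9%).

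**Figure D3:**
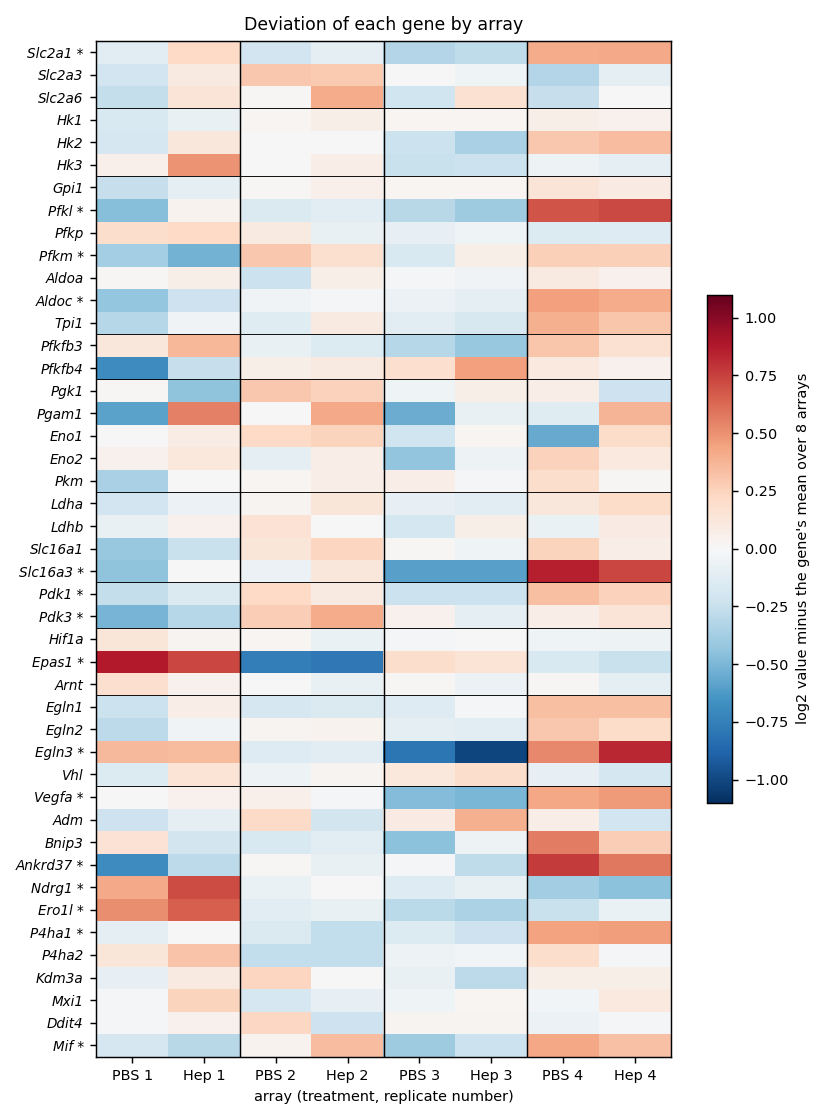
Log2 value minus the gene's own mean over the 8 arrays, for the 45 genes (rows, grouped by role) and the 8 arrays (columns, set in pairs by replicate number). Red is above and blue below the mean, and a star marks the 15 genes that passed the F test for the number; both arrays of a number share their colour in most starred rows, and the columns of number 4 are red for 15 genes that lie above all other arrays.

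Egln3, the hydroxylase gene that HIF itself induces, read 6.84, 6.34, 5.69 and 7.01 on PBS arrays 1 to 4 and 6.83, 6.37, 5.47 and 7.31 on hepcidin arrays 1 to 4. Number 4 was highest and number 3 lowest under both treatments, a 2.99-fold range of pair means (F = 52.9, adjusted p 0.00329 in limma). Slc16a3, the exporter gene for lactate, read 7.99, 8.36, 7.83 and 9.28 with PBS and 8.43, 8.55, 7.83 and 9.16 with hepcidin. It followed the same order at its ends, with a 2.61-fold range (F = 33, adjusted p 0.00744). Vegfa read 9.36, 9.41, 8.88 and 9.78 with PBS and 9.40, 9.33, 8.85 and 9.82 with hepcidin. Its arrays 1 and 2 were level, number 3 was low and number 4 high, over 1.91-fold (F = 30.7, adjusted p 0.00832).

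Pfkl read 7.03, 7.34, 7.20 and 8.19 with PBS and 7.54, 7.38, 7.11 and 8.23 with hepcidin. Number 4 stood alone here, and numbers 1 to 3 overlapped, with a 2.08-fold range (F = 20.3, adjusted p 0.0184). Ankrd37, a HIF target of unclear role, read 5.97, 6.67, 6.64 and 7.43 with PBS and 6.37, 6.58, 6.38 and 7.24 with hepcidin. It was highest on number 4 and lowest on number 1, over 2.24-fold (F = 18.4, adjusted p 0.0219). P4ha1, a collagen prolyl hydroxylase gene, had pair means of 9.49, 9.33, 9.35 and 9.99, and the aldolase gene Aldoc of 7.55, 7.85, 7.80 and 8.31.

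Other members followed a different order, with number 1 apart. Epas1 had the largest F of all members (92, adjusted p 0.00123). It read 9.37, 7.73, 8.69 and 8.33 with PBS and 9.23, 7.71, 8.64 and 8.25 with hepcidin, so that each number kept its own level under both treatments, over 2.99-fold. Ero1l, an oxidase of the endoplasmic reticulum that HIF induces, read 10.87, 10.23, 10.06 and 10.11 with PBS and 11.01, 10.27, 10.01 and 10.28 with hepcidin, high on number 1 only (F = 29.4, adjusted p 0.00908). Ndrg1, a stress and differentiation gene under HIF control, read 9.69, 9.20, 9.13 and 8.89 with PBS and 9.99, 9.27, 9.19 and 8.82 with hepcidin. It was highest on number 1 and lowest on number 4 (F = 25.6, adjusted p 0.0116). Both arrays numbered 1 were above the other 6 in 6 members (13.3%, against 9.81% of all genes) and under them in 8 (17.8%, against 10.2%), among them Pfkm and Pdk3. Hif1a and Arnt were among the 6, with ranges of pair means of 0.13 and 0.16 that did not pass the F test (adjusted p 0.77 and 0.6).

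**Figure D4:**
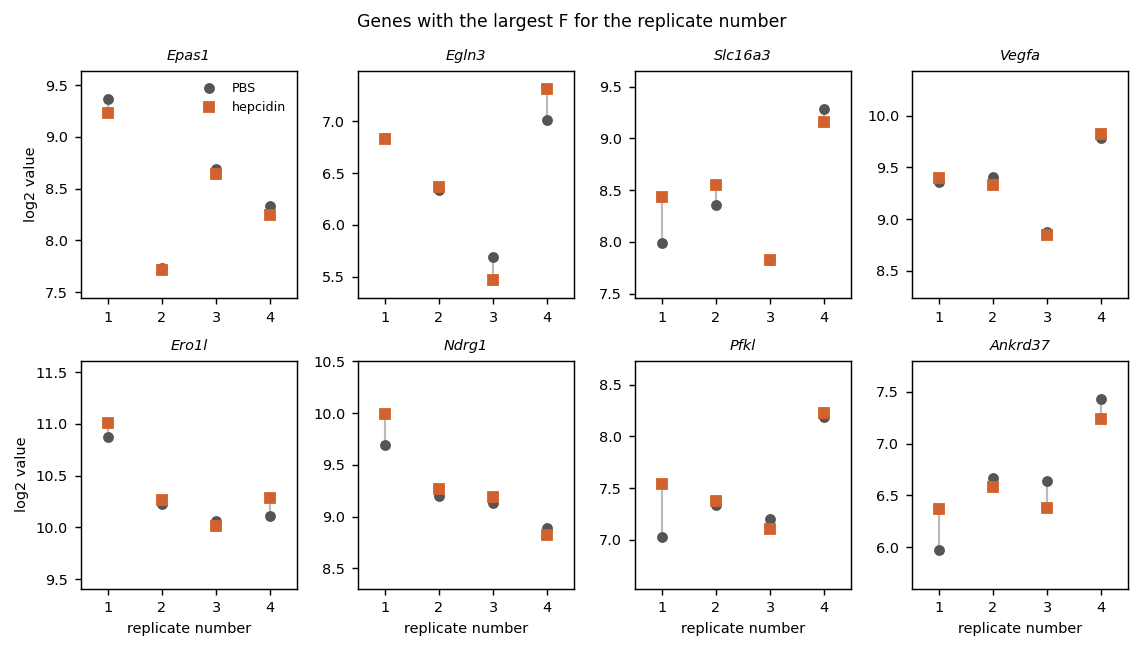
Log2 value of the 8 genes with the largest F for the replicate number (x axis, numbers 1 to 4); circles are PBS and squares hepcidin, each panel spans 2.2 log2 units, and a grey line joins arrays with the same number. The genes were picked by this F, which favours genes whose arrays with the same number lie close together. The arrays numbered 1 still differ by 0.51 in Pfkl, 0.44 in Slc16a3 and 0.39 in Ankrd37. Egln3, Slc16a3, Vegfa, Pfkl and Ankrd37 are highest on number 4, and Epas1, Ero1l and Ndrg1 on number 1.

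The count of members called by number depends on few arrays. Without both arrays numbered 1 it was 6 of 45 (13.3%, against 0.704% of genes): Pfkl, Slc16a3, Epas1, Egln3, Vegfa and Ankrd37. Leaving out a single array gave 8 without either array numbered 1, 7 without either numbered 2, 10 without the PBS and 9 without the hepcidin array numbered 3, and 5 and 4 without the PBS and the hepcidin array numbered 4. The share of all genes called in these 8 fits was 2.1% to 3.5%. In each, 1 number is held by a lone array, assumed to vary like the others. In these bulk samples a lower share of cells of a type and less RNA per cell cannot be told apart. The neutrophil and macrophage marker means given above also moved with the number, 8 of 10 and 4 of 9 of those genes passing the same F test. Their part in the differences of the members was not tested.

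Promoter sequences were described for all members that had a window, whether called by number or not. HIF binds DNA at a core of ACGTG or GCGTG, and the 250 bases before the start of each gene were searched for both letter strings and their reverse complements CACGT and CACGC, in RefSeq promoter windows on GRCm38.p6. A palindromic CACGTG, the site of other factors such as Myc, counts as ACGTG on both strands. Of 43 members with a window, 38 held a core (88.4%), against 41.5% of 27025 genes with a window and 63.1% of the 7578 that had a mean value of at least 6. For ACGTG alone the shares were 58.1%, 18.5% and 26.0%. Both cores hold a CG pair, and member windows had a median of 14 CG pairs, against 6 in all windows and 16 in those of genes with a mean of at least 6. The list was drawn up in part from known HIF targets, so its share is a description. Of the 13 members called by number that had a window, 12 held a core, Mif being the exception. Over all members it was 38 of 43, so a core was about as common among the called members as among all.

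The windows of 4 genes that were highest on number 4 and had 1 window each, and of Ero1l, which was highest on number 1, are shown in the direction of the gene, with the cores in capitals. They cover chr12:54203875-54204124 (minus strand) for Egln3, chr11:120948817-120949066 (plus) for Slc16a3, chr10:78009808-78010057 (minus) for Pfkl, chr8:45999851-46000100 (minus) for Ankrd37 and chr14:45318573-45318822 (minus) for Ero1l.
Egln3: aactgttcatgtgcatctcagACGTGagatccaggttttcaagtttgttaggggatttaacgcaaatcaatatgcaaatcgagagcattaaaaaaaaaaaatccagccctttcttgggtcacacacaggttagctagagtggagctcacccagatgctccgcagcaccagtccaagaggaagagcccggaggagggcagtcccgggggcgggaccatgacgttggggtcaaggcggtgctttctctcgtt
Slc16a3: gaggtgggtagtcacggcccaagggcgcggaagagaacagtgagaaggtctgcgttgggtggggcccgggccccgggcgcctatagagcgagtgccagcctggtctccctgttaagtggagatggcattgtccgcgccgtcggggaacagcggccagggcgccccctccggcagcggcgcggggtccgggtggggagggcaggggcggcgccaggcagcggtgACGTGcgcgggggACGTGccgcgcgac
Pfkl: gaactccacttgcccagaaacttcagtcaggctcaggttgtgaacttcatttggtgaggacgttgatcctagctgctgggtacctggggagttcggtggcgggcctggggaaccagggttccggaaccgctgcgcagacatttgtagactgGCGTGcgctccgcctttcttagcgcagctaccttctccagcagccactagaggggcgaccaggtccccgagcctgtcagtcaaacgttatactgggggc
Ankrd37: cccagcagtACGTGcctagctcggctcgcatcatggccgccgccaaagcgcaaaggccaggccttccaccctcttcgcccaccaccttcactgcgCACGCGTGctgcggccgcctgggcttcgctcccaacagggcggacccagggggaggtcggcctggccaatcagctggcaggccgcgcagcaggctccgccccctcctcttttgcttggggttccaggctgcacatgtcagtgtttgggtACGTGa
Ero1l: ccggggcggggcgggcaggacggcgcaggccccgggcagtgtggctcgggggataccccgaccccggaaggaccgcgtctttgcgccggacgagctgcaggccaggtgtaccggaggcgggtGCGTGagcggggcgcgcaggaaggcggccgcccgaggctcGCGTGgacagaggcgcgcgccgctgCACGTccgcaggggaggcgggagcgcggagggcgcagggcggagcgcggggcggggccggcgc
Slc16a3 held 2 copies of ACGTG close to its start, Egln3 1 far from it, and Pfkl 1 GCGTG. Ankrd37 held ACGTG at both ends of the window and an overlapping pair of the other core between them, and Ero1l held 3 cores. Not every gene that was high on number 4 held a core: the windows of Gpi1 and Tpi1 held 0. Vegfa had 2 windows, 1 of them without a core. A match of letters is not a measured binding site.

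The wider pathway was followed through lists that were also chosen with earlier results known. Of 39 other genes of glycolysis, pyruvate, pentose phosphate and glycogen metabolism, 0 passed in either direction, and 0 had an unadjusted p under 0.05 in limma. Ldhc, a lactate dehydrogenase gene of the testis, differed by -0.12 ± 0.08 from a low PBS mean of 3.93. Of 38 other HIF pathway genes, 0 passed in either direction and 1 had an unadjusted p under 0.05, Arnt2, a partner subunit gene of neural tissue, at 0.22 ± 0.09 from a PBS mean of 4.59. The adenylate kinase gene Ak4 followed with 0.18 ± 0.09. The median change was 0.01 in the list of glycolysis genes and 0.05 in that of HIF genes.

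The F test for the replicate number was counted in both lists as well. In the glycolysis list 1 of 39 genes passed the F test, the pyruvate dehydrogenase phosphatase gene Pdp1, and in the HIF list 8 of 38 did, against the 5.67% of all genes. Pdgfb, a growth factor gene, had pair means of 7.67, 8.08, 7.80 and 8.87, and the mitochondrial protein gene Fam162a of 7.79, 8.15, 7.77 and 8.52, both highest on number 4. The lipid droplet gene Hilpda (7.58, 6.57, 6.67 and 7.17), the collagen oxidase gene Lox (7.19, 6.32, 6.19 and 6.81), the repressor gene Bhlhe40 (10.66, 10.20, 9.63 and 10.00) and the chemokine receptor gene Cxcr4 (from 9.65 on number 1 to 8.84 on number 4) were highest on number 1. The cyclin gene Ccng2 was highest on number 2. HIF targets in these cultures therefore did not share 1 order over the numbers.

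**Figure D5:**
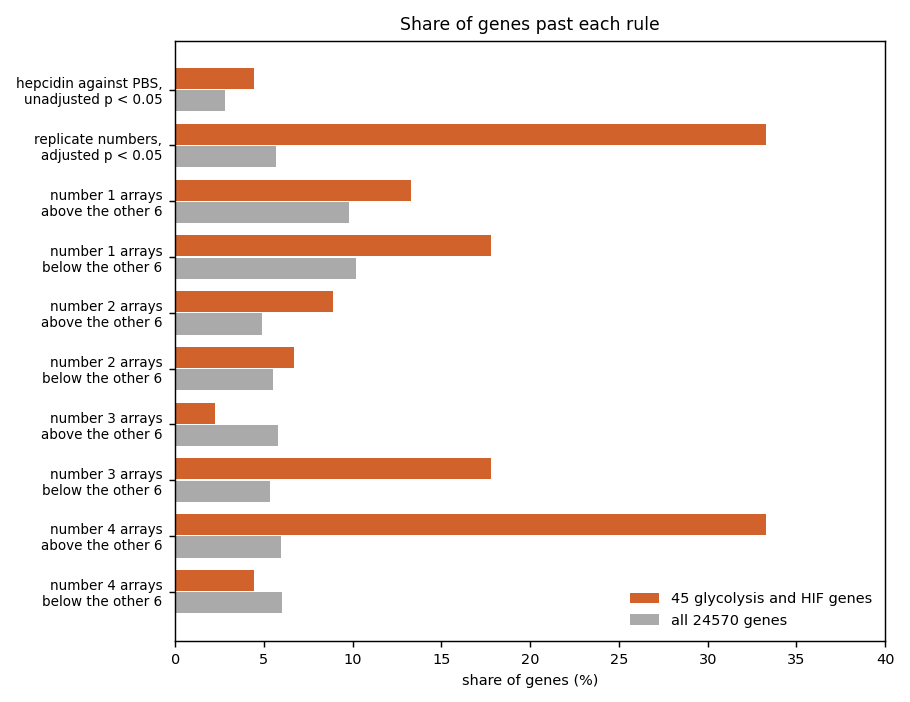
Share of the 45 glycolysis and HIF genes (orange) and of all 24570 genes (grey) that met each rule named on the vertical axis, in percent. The orange bars for the F test and for number 4 above the other 6 arrays both stand at 33.3%, against 5.67% and 5.98% of all genes. The bar for hepcidin stands at 4.44% against 2.83%. The grey bars include dim genes. Among genes with a mean of at least 6, the F test called 11.9%, against 35% of such members.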

How the data were processed

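Biotin-labelled cDNA of total RNA was hybridised to Affymetrix whole-transcript arrays, per the labels' protocols. The values, on a log2 scale, were deposited by the authors after RMA (background correction, quantile normalization and probe summary) with affy 1.36.1, per the submitters' processing notes. The probe set definition is not given in the sources used here. Ratios of dim genes are compressed on this scale. The number of arrays limits the precision.

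Of 24973 rows, 24015 had 1 symbol in the platform table and none several, and in each the row number equalled the Entrez number. By that number 559 more were named from RefSeq, and 399 stayed unnamed. For 4 symbols the brightest row was kept, leaving 24570 genes, with no filter. limma 3.58.1 in R 4.3.3 (lmFit, eBayes) compared hepcidin with PBS, and a second limma fit with treatment and number gave the F test. P-values were adjusted by Benjamini-Hochberg over all genes. Both fits were run on simulated independent noise with the scatter left after treatment and number. The hepcidin fit recovered 64% of changes of 0.5 log2 units and 90% of changes of 1. The F test recovered 49% of ranges of 1 and 81% of ranges of 2. The real hepcidin fit had more scatter (median residual SD 0.154, against 0.118 with number), so the first shares do not carry over to it. Deviations from group means correlated at 0.345 to 0.551 between arrays with equal numbers and at -0.356 to 0.125 otherwise, so the numbers pair the arrays. This pairing comes from the titles and that check. Plots used matplotlib 3.10.9 in Python 3.11.15.

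The members, lists and tests were chosen with earlier results of these data known. Members with full values were the 8 with the smallest unadjusted p, the 8 with the largest F, and 10 named whatever their value (23 in all). Each other pathway list gave its genes past the threshold, else the 2 of lowest p; some of these genes are not reported here. Markers of dendritic cells, B cells, T and NK cells, endothelium, fibroblasts and erythroid cells had list means of 3.72 to 5.09 on all arrays. Alternatives changed the normalization, dim-gene filter, variance model, block, array weights, fold minimum, probe set handling and the arrays included; the closing section gives their effect.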

Additional observations from a re-analysis of the deposited data

Results flagged for a closer look

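Of 90 sets of 4 arrays (45 genes in PBS and in hepcidin), 5 held an array whose gap to its neighbour, as a share of the set's range, exceeded Dixon's 95% critical value, which chance does in about 1 of 20 sets. Slc2a6 read 8.1 on the PBS array numbered 2, against 7.83 to 7.87 on the other PBS arrays. Pfkfb4 read 5.91 on the PBS array numbered 1, against 6.67 to 6.79. Arnt read 9.45 on the PBS array numbered 1, against 9.27 to 9.28. Adm read 4.26 on the hepcidin array numbered 3, against 3.66 to 3.76. P4ha1 read 9.98 on the PBS array numbered 4, against 9.38 to 9.44, and the hepcidin array of that number was high as well, at 10.00.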

How the results depend on the processing

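With hepcidin, no member passed under any alternative run, and the median change of the members stayed at 0.00 to 0.11 when single arrays were left out, with 2 to 3 members at an unadjusted p under 0.05. Over all genes, the count at an unadjusted p under 0.05 was 696, and 601 to 762 without single arrays. It was 98 in a fit redone on genes with a mean of at least 6, and 184 on those at or above the median. With the replicate block it was 1203, and with the replicate block as a random term 1214. It was 1337 with the block and without both arrays numbered 1. With a fold minimum of 1.5 it was 7, where 0 members had such a p. Genes past the adjusted threshold were 1 with the replicate block, 5 with it as a random term, 1 with the block and without both arrays numbered 1, and 0 to 2 without single arrays. The block changed no call of a member.

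Genes called by replicate number were 1392. They were 2969 in a fit redone on genes with a mean of at least 6, and 2671 on those at or above the median. With trend and robust variance they were 2925, without both arrays numbered 1 173, and without single arrays 515 to 859. The members called were 24 of 40 in the fit redone on genes with a mean of at least 6, where 31% of genes were called. They were 24 with trend and robust variance (11.9% of genes), 6 without both arrays numbered 1, and 4 to 10 without single arrays.

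Directions turned in uncalled changes with hepcidin. Vegfa was at 0.01 with median centring. When both arrays numbered 1 were dropped, in either of the fits with or without the replicate block, Pfkl was at 0.00, Hk2 at -0.03, Pkm at -0.08 and Bnip3 at 0.05. With array weights Pkm was at -0.02 and Bnip3 at 0.01. Without single arrays the changes ran from -0.34 to 0.21 for Epas1, -0.25 to 0.36 for Egln3, -0.09 to 0.43 for Slc16a3, -0.17 to 0.16 for Vegfa, -0.14 to 0.25 for Ero1l, -0.13 to 0.26 for Ndrg1, -0.10 to 0.38 for Pfkl, -0.27 to 0.21 for Ankrd37, -0.05 to 0.18 for Hk2, -0.14 to 0.12 for Pfkfb3, -0.08 to 0.10 for Pkm and -0.21 to 0.12 for Bnip3. The cause was not tested. With the smaller background bound, 4 in place of 20 members counted as dim.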
